A study of Homo sapiens with 24 samples.

Results

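CCL3, CCL4 and CCL5 are 3 chemokine genes that were followed in ARP1, a human multiple myeloma cell line, after culture with LPA or with PBS. They are the rows of the deposited table that carry these 3 symbols, 3 of the 19158 genes listed there, and they were selected on measured values, because their levels differed between the treatments in these libraries. Their own difference is therefore given as a description, with no test. The table also lists CCL3L3 and CCL4L2, near-identical copies of CCL3 and CCL4, which were read beside them. The vehicle group consisted of ARP1 cells kept with PBS, and the treated group of ARP1 cells kept with LPA for 24 h. LPA is read as lysophosphatidic acid, a signalling lipid, although the labels hold only the abbreviation, and its dose is written there as 4 mg/mL, a unit that is in doubt. Each group had 3 libraries, and each library was read in 4 lanes that were counted as 1 replicate. All cells were of 1 tumour cell line grown alone, so bone cells and marrow stroma were no part of the culture, and no source says whether libraries of 1 treatment were grown as separate cultures. The p-values below then measure the spread between these libraries, which may be technical.

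Chemokines are small secreted proteins that draw cells along a gradient by binding G protein-coupled receptors. CCL3 (MIP-1 alpha) and CCL4 (MIP-1 beta) are CC chemokines made by activated lymphocytes, macrophages and plasma cell tumours, and CCL5 (RANTES) is a related ligand best known from T cells. CCL3 and CCL5 both bind the receptor CCR1. In multiple myeloma, CCL3 is known as an osteoclast-activating factor secreted by the tumour cells, and CCL4 has been described in the same role. Their genes lie in a cluster on chromosome 17 and are switched on by NF-kappaB, AP-1 and, for CCL5 above all, interferon regulatory factors.

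Levels are given in FPM, reads scaled to the total of the lane, as deposited (the CPM unit for fragments), averaged over the 4 lanes of a library. The totals behind this scaling were recovered from the values, with the smallest value of each lane taken as 1 read. They were 5498910 to 5615625 reads in vehicle libraries and 6941747 to 8740992 reads in LPA libraries. These totals thus differed with the treatment, and 3 reads were worth between 0.343 and 0.546 FPM. PBS 2 and LPA 3 stood apart within their groups, at a chi-square divided by its degrees of freedom of at least 3.97 and 2.51 against the other libraries of the group, whereas PBS 1 with PBS 3 gave 1.36 and LPA 1 with LPA 2 gave 1.37. Of 10 plasma cell markers all were listed and 8 were higher with LPA (7 after rescaling). Among all tested genes 22.5% were higher on FPM and 10.0% after rescaling. The summed level of the plasma cell markers went from between 1710 and 1873 FPM to between 2757 and 2937 FPM. Whether this shift had a part in the chemokine levels was not tested. Of 10 monocyte and macrophage markers 5 were listed, summing to at most 7.13 FPM with PBS and 7.92 FPM with LPA, and LYZ, FCGR3A, MRC1, S100A8 and S100A9 were not listed. Of 10 T and NK cell markers 7 were listed, summing to between 25.3 and 32.0 FPM with PBS and between 32.0 and 35.7 FPM with LPA, most of it KLRD1, and CD3D, CD2 and GZMB were not listed. Of 6 stromal markers 5 were listed, summing to between 20.8 and 30.0 FPM with PBS and between 18.5 and 23.4 FPM with LPA. Of the 4 tested stromal markers COL1A1 was called lower, from 14.6 ± 2.41 to 10.2 ± 0.813 FPM (SD, n = 3), also after rescaling, in edgeR and in DESeq2, and its part in the chemokine levels was not tested.

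CCL3 was strongly expressed with both treatments and was the least reduced of the 3. Its level was 990.7 FPM in PBS 1, 1017 FPM in PBS 2 and 1007 FPM in PBS 3, and 657 FPM in LPA 1, 670 FPM in LPA 2 and 714 FPM in LPA 3. All LPA libraries lay below all PBS libraries. Within the LPA group LPA 3 was the highest on FPM, which did not hold after rescaling. The mean went from 1005 ± 13.4 FPM (SD, n = 3) to 680.0 ± 29.9 FPM (SD, n = 3), which leaves 67.7% of the vehicle level. These levels rested on between 4955 and 5739 reads per library.

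CCL4 was lower by a larger factor. It stood at 102 FPM in PBS 1, 125 FPM in PBS 2 and 103 FPM in PBS 3, against 47.1 FPM in LPA 1, 40.2 FPM in LPA 2 and 48.1 FPM in LPA 3. The groups did not overlap, and PBS 2 was the high library of its group. The mean went from 109.9 ± 13.1 FPM (SD, n = 3) to 45.1 ± 4.34 FPM (SD, n = 3), or 41.1% of the vehicle level, with between 299 and 691 reads per library.

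CCL5 showed the largest relative difference of the 3. It was measured at 35.3 FPM in PBS 1, 38.7 FPM in PBS 2 and 36.2 FPM in PBS 3, and at 5.604 FPM in LPA 1, 5.24 FPM in LPA 2 and 4.90 FPM in LPA 3. The libraries of a group lay close together, far from those of the other group. The mean went from 36.7 ± 1.79 FPM (SD, n = 3) to 5.25 ± 0.351 FPM (SD, n = 3), a 6.997-fold lower level that leaves 14.3%. With LPA this rested on 49, 39 and 34 reads per library, and the exact 95% Poisson interval of the lowest library ran from 3.39 to 6.84 FPM, that of the lowest vehicle library from 30.5 to 40.5 FPM. Such intervals cover counting error only.

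**Figure D1:**
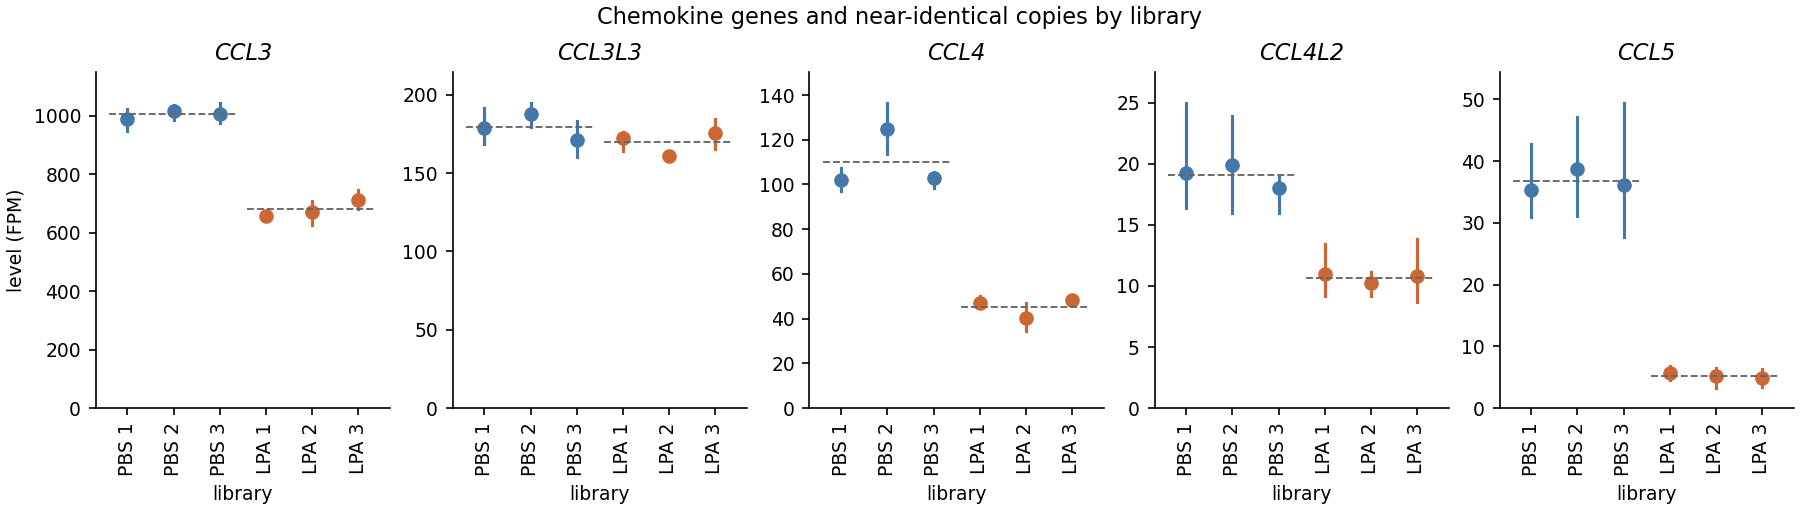
Level in FPM (vertical axis, from 0, a separate scale in each panel) of CCL3, CCL3L3, CCL4, CCL4L2 and CCL5 in the 3 PBS libraries (blue) and the 3 LPA libraries (orange). Points are library means, vertical lines span the 4 lanes of a library and dashed lines are group means; the LPA points of CCL3, CCL4, CCL4L2 and CCL5 lie below all PBS points, whereas those of CCL3L3 overlap them.

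On the log2(FPM + 1) scale, which understates the change of low genes, the difference of LPA minus PBS was -0.56 (SE 0.05) for CCL3, -1.26 (SE 0.08) for CCL4 and -2.59 (SE 0.13) for CCL5, from the limma fit of all 16274 tested genes with 3 libraries a group. The median tested gene was 0.13 higher with LPA on this scale. After rescaling by median-of-ratios size factors, which put the median gene at 0.01, the differences were -0.71, -1.40 and -2.72. As background, at an adjusted p of 0.05, 4.49% of all tested genes were called lower with LPA and 22.5% higher on FPM, and 9.2% lower and 10.0% higher after rescaling. For 7.42% of the tested genes all LPA libraries lay below all PBS libraries, as they did for these 3, which were chosen for it. Without PBS 2 and LPA 3 the differences were -0.59, -1.22 and -2.52. In these bulk libraries, fewer cells that carry a transcript and less of it per cell cannot be told apart.

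The spread between lanes was close to that of counting for the 3 genes, at a chi-square divided by its degrees of freedom of 1.67 for CCL3, 0.544 for CCL4 and 1.46 for CCL5 over 18 degrees of freedom. Between libraries of a group it was not the same for each gene. CCL5 varied no more than counting allows, at 0.480 within PBS and 0.185 within LPA. CCL3 varied by 1.00 within PBS and by 9.90 within LPA, and CCL4 by 8.57 within PBS and 3.12 within LPA. On FPM the library farthest from the rest of its group was LPA 3 for CCL3 and PBS 2 for CCL4. These libraries stood apart over all genes too. After median-of-ratios rescaling CCL3 was at 635, 655 and 650 in LPA 1 to 3, so LPA 3 was no longer the highest. Rescaled CCL4 was at 110, 126 and 110 in PBS 1 to 3, with PBS 2 still the highest. The chi-square values were taken without rescaling. The highest single LPA lane of CCL3 was at 745 FPM and its lowest PBS lane at 947 FPM. For CCL5 the highest LPA lane was at 6.79 FPM and the lowest PBS lane at 27.7 FPM.

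Levels of different genes were compared per kilobase of merged exons. Per length CCL3 was at 673 ± 8.94 FPM per kilobase with PBS and 455 ± 20.03 with LPA (SD, n = 3), rank 16 and rank 25 among 15661 protein-coding genes. CCL3L3 came next, at 122 ± 5.65 FPM per kilobase with PBS and 116 ± 5.29 with LPA. CCL4 was at 54.1 ± 6.42 FPM per kilobase with PBS, rank 269, and at 22.2 ± 2.14 with LPA, rank 1098. CCL5 followed at 24.3 ± 1.19 FPM per kilobase with PBS, rank 797, and at 3.47 ± 0.232 with LPA, rank 8012. CCL4L2 stood at 13.6 ± 0.689 FPM per kilobase with PBS and 7.63 ± 0.293 with LPA. The order with PBS was thus CCL3, CCL3L3, CCL4, CCL5, CCL4L2, and with LPA the last pair changed places. Neighbours in both orders were further apart than their SDs.

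Ratios between genes within a library do not depend on how the libraries were scaled. CCL4 amounted to 10.3%, 12.3% and 10.2% of the FPM of CCL3 in PBS 1 to 3 and to 7.18%, 5.998% and 6.74% in LPA 1 to 3. CCL5 amounted to 3.56%, 3.81% and 3.59% of CCL3 with PBS and to 0.853%, 0.782% and 0.687% with LPA. Set against CCL4, CCL5 went from 33.6 ± 2.27% to 11.7 ± 1.43% (SD, n = 3). No vehicle library overlapped an LPA library in any of these ratios. The 3 genes together summed to 1152 ± 26.9 FPM with PBS and 730.3 ± 31.6 FPM with LPA (SD, n = 3), and most of these reads were of CCL3.

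The near-identical copies bear on how the rows of CCL3 and CCL4 can be read, and the sequences of CCL3 and its copy are shown because the rows of the pair differed between treatments in unlike ways. CCL3L3 (ENSG00000276085, listed under the names CCL3L1 and CCL3L3 with the same values) encodes a chemokine almost the same as CCL3 (ENSG00000277632) and lies near it on chromosome 17. The coding sequences from GENCODE 29 follow, 5′ to 3′, 279 bases for CCL3 and 282 for CCL3L3. Capitals mark bases that differ between them, 9 substitutions and 1 insertion of 3 bases in CCL3L3, with 270 identical bases and 96.8% identity over the aligned part.
CCL3 coding: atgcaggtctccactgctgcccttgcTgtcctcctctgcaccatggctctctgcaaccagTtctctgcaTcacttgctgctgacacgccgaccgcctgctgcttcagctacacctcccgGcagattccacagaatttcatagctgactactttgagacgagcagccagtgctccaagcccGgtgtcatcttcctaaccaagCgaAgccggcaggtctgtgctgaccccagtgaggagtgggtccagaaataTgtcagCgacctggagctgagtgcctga
CCL3L3 coding: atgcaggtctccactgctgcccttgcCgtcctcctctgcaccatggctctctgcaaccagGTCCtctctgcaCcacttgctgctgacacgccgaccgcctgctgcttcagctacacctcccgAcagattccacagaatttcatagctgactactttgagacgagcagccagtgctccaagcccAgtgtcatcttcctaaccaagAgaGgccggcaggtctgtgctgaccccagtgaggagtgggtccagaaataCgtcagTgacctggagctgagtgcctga
The whole protein-coding transcripts, 778 and 784 bases long, were 96.1% identical. Over the annotated transcripts of each gene, 4.93% of the stretches of 50 bases in CCL3 also occurred in CCL3L3, and none of the stretches of 100 bases did. For CCL4 and CCL4L2 the shares were 10.1% at 50 bases and 2.83% at 100 bases, with none at 150 bases. CCL3, CCL4 and CCL5 shared no stretch of 50 bases with each other. The sources used here state neither the read length nor how reads matching more than 1 gene were treated, so the split of reads within each pair is uncertain.

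The row of CCL3L3 did not follow that of CCL3. CCL3L3 was at 178 FPM in PBS 1, 188 FPM in PBS 2 and 171 FPM in PBS 3, and at 172 FPM in LPA 1, 161 FPM in LPA 2 and 176 FPM in LPA 3. The groups overlapped, and the difference of -0.08 (SE 0.06, n = 3 a group) on the log2(FPM + 1) scale did not pass the limma test (adjusted p = 0.395). After rescaling it was -0.22 and past the threshold (adjusted p = 0.000685), as in edgeR on recovered reads (-0.22, adjusted p = 0.000356) and in DESeq2 (-0.22, adjusted p = 0.00611), so its call depends on the scaling while its size stayed well below that of CCL3. Within each library CCL3L3 amounted to 18.0%, 18.5% and 17% of CCL3 with PBS and to 26.3%, 24.0% and 24.6% with LPA.

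CCL4L2 (ENSG00000276070, listed as CCL4L1 and CCL4L2) was lower with LPA, like CCL4 (ENSG00000275302) but by less. It was at 19.2 FPM in PBS 1, 19.9 FPM in PBS 2 and 18.0 FPM in PBS 3, and at 10.99 FPM in LPA 1, 10.2 FPM in LPA 2 and 10.8 FPM in LPA 3. The difference was -0.78 (SE 0.13, n = 3 a group) on the log2(FPM + 1) scale (limma, adjusted p = 4.94e-06) and -0.91 after rescaling. CCL4L2 amounted to 17.4 ± 1.47% of CCL4 with PBS and to 23.7 ± 1.53% with LPA (SD, n = 3). With each copy added to its parent gene, the CCL3 pair went from 1184 ± 18.5 to 849.7 ± 34.5 FPM and the CCL4 pair from 129 ± 13.8 to 55.8 ± 4.73 FPM (SD, n = 3), differences of -0.48 and -1.19 on the log2 scale.

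**Figure D2:**
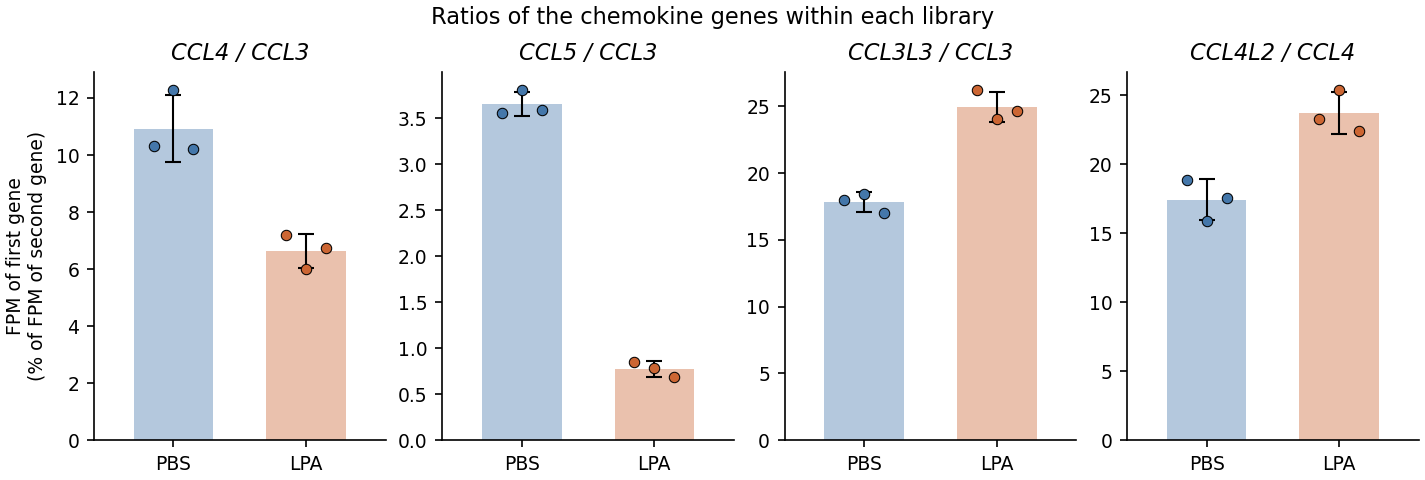
Level of 1 gene as a percentage of another in the same library (vertical axis, from 0) for CCL4 and CCL5 over CCL3, CCL3L3 over CCL3 and CCL4L2 over CCL4. Bars are group means with SD (n = 3), points are libraries; the shares of CCL4 and CCL5 are lower with LPA (6.64% against 10.9% and 0.774% against 3.65%), and the shares of both copies are higher.

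The promoter windows of CCL3 and CCL3L3, from 250 bases before to 50 after the start, are shown because the rows of this pair moved by different amounts. They come from RefSeq (GRCh38.p14), whose promoter table matched 1 of the 3 members, and CCL4 and CCL5 are named only. The window of CCL3 is chr17:36090094-36090393 and that of CCL3L3 chr17:36196709-36197008, both on the minus strand and written here 5′ to 3′ on that strand. Of the aligned bases 277 were identical (94.2%) and 17 were substituted, and capitals mark these and the 6 bases of each window without a partner in the other.
CCL3 promoter: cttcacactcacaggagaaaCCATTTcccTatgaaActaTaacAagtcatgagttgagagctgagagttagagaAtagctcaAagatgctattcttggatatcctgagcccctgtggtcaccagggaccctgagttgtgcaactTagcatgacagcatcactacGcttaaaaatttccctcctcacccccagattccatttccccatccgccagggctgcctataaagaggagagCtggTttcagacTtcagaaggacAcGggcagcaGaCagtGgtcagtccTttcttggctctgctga
CCL3L3 promoter: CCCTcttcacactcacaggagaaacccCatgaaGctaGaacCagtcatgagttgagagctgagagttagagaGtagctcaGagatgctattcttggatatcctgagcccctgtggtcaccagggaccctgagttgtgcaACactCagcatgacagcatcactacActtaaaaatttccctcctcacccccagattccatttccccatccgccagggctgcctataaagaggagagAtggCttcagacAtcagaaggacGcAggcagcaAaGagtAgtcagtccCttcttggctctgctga
A TATA box (TATAAA on the gene strand) lay 29 bases before the start in both windows, and 7.33% of 35116 RefSeq windows of this length hold one. A RUNX motif (TGTGGT on either strand) began 138 bases before the start of CCL3 and 140 before that of CCL3L3, and 13.1% of all windows hold it. Neither window held the AP-1 motif TGANTCA (7.71% of windows), the GAS motif TTCNNNGAA (7.66%), the NF-kappaB motif (11.3%) or the ISRE core (2.55%), all searched on both strands. Overlap between different motifs was allowed.

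None of the other chemokine ligands that could be tested passed, and all of these were at low levels. Of 40 other ligand genes, 14 were listed and 7 were abundant enough to be tested, and 0 passed in either direction in limma and edgeR, 0 at an unadjusted p of 0.05 in limma, and 0 of the 3 to which DESeq2 gave an adjusted p. Their median difference was 0.00, against 0.13 over all tested genes, of which 4.49% were called lower and 22.5% higher on FPM. These 7 rested on 4 to 50 reads a library, with SEs between 0.18 and 0.26 in limma. A difference of the size of that of CCL3 (-0.56) could therefore have been missed. XCL1, a lymphotactin, was at 6.25 ± 0.944 FPM with PBS and 5.44 ± 0.652 FPM with LPA, and CXCL16, the ligand of CXCR6, at 6.19 ± 0.652 and 5.13 ± 0.385 FPM (SD, n = 3). CCL28, a mucosal chemokine that binds CCR10, was at 3.01 ± 0.0864 and 3.71 ± 0.541 FPM. All LPA libraries lay below all PBS libraries for CXCL16 and above them for CCL28, and the groups overlapped for the other tested ligands. Over all tested genes the share lying below was 7.42%, and the share lying above is not given here. CCL1, CCL16, CX3CL1 and XCL2 had means between 1.20 and 1.80 FPM with PBS and between 1.25 and 1.78 FPM with LPA.

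Of the ligands below the filter, CCL20 was at 1.08 ± 0.636 FPM with PBS and 0.658 ± 0.181 FPM with LPA (SD, n = 3). CXCL8, a neutrophil attractant, was at 4.56 FPM in LPA 2 and at most 1.46 FPM in the other 5 libraries. CXCL5 was at 2.95 FPM in LPA 2 and at most 0.544 FPM elsewhere. In both cases 1 library set the LPA mean.

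Among the chemokine receptors, 18 of 23 were listed and 11 tested, and 1 was lower and 1 higher with LPA. Their median was 0.16, close to the 0.13 of all tested genes, of which 4.49% were called lower and 22.5% higher on FPM. CCR7, the lymph node homing receptor, fell from 21.5, 23.7 and 19.1 FPM in PBS 1 to 3 to 9.83, 12.4 and 14.7 FPM in LPA 1 to 3, a difference of -0.77 (SE 0.13, adjusted p = 1.05e-05, limma, n = 3 a group). CXCR4, which holds plasma cells in bone marrow, rose from 77.7, 88.4 and 82.5 FPM to 125, 129 and 143 FPM, a difference of 0.67 (SE 0.07, adjusted p = 2.97e-10, limma, n = 3 a group) that was 0.53 after rescaling. Neither gene's groups overlapped, and for 7.42% of all tested genes all LPA libraries lay below all PBS libraries.

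CCR1, a receptor of CCL3 and CCL5, was at 11.4, 15.2 and 14.9 FPM with PBS and at 9.72, 10.9 and 11.5 FPM with LPA. Its difference of -0.33 (SE 0.14, n = 3 a group) did not pass in limma (adjusted p = 0.0742), and the groups overlapped, but it passed after rescaling (-0.46, adjusted p = 0.0116), in edgeR (-0.52) and without PBS 1 (-0.46), each of which makes 2 receptors lower. In DESeq2 it did not pass (-0.52, adjusted p = 0.0648). CCR3, which also binds CCL5, was at 2.05 ± 0.292 and 3.42 ± 0.292 FPM (SD, n = 3), with no overlap but an adjusted p of 0.0579 in limma. CCR2 (58.3 ± 4.06 and 65.1 ± 2.41 FPM) and CCR10 (19.4 ± 2.49 and 19.9 ± 1.68 FPM) did not pass, although without PBS 2 CCR2 did, as a second receptor that was higher (0.21). CCR4, CXCR6, XCR1, ACKR2 and ACKR4 did not pass either, and CXCR3 was at 1.14 ± 0.365 and 0.432 ± 0.0282 FPM, untested.

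**Figure D3:**
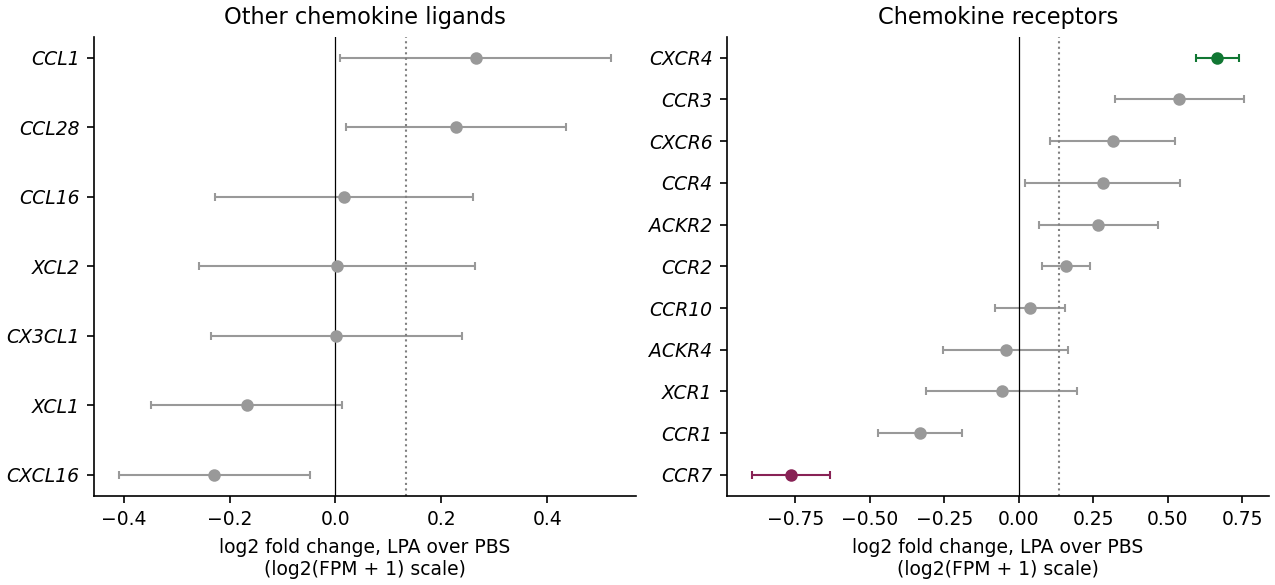
Difference of LPA minus PBS on the log2(FPM + 1) scale (horizontal axis) with its SE from the fit of 3 libraries a group, for the 7 tested other ligands (left) and the 11 tested receptors (right). Purple points are called lower, green called higher and grey not called, and the dotted line is the median tested gene at 0.13; CXCR4 and CCR7 are the only coloured points.

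Many transcription factors known from chemokine promoters fell with LPA. Of 31 factors, 28 were listed and 27 tested, 17 fell, none rose and the remaining 10 missed the threshold, at a median of -0.26 against 0.13 for all tested genes. After rescaling 19 fell and none rose. Over all tested genes 4.49% fell and 22.5% rose on FPM, and 9.2% and 10.0% did after rescaling. RUNX1 (30.2 ± 5.18 and 34.1 ± 2.20 FPM) did not pass, but without PBS 2 it was called higher. IRF1, an interferon-inducible activator, fell from 112 ± 4.69 to 49.0 ± 3.08 FPM (SD, n = 3), a difference of -1.18 (SE 0.08, limma, adjusted p = 8.22e-18). The AP-1 subunits FOS (43.1 ± 1.71 to 24.7 ± 0.761 FPM) and JUNB (132 ± 3.86 to 89.6 ± 2.33 FPM) fell as well (SD, n = 3). In each of these 3 genes all LPA libraries lay below all PBS libraries, as they did for 7.42% of all tested genes. The 5 NF-kappaB subunits, picked out after their values were seen, were split. NFKB2 (165 ± 3.82 to 132 ± 3.85 FPM), RELB (51.0 ± 3.16 to 42.4 ± 3.84 FPM) and REL (102 ± 7.71 to 85.9 ± 4.97 FPM) fell, whereas NFKB1 (44.1 ± 3.08 and 42.0 ± 1.82 FPM) and RELA (46.6 ± 5.03 and 45.0 ± 0.507 FPM) did not pass (SD, n = 3).

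Several genes known as feedback inhibitors of NF-kappaB are themselves NF-kappaB target genes. The set used here may also hold genes that are not targets, or that do not only inhibit. Whether NF-kappaB activity differed was not tested. All 11 genes of this set were listed and tested, 7 fell, none rose and the remaining 4 missed the threshold, and 8 fell after rescaling. Their median was -0.26, against 0.13 for all tested genes. Of all tested genes 4.49% fell and 22.5% rose on FPM, and 9.2% and 10.0% did after rescaling. TNFAIP3 (A20, a ubiquitin-editing enzyme) fell from 122 ± 4.45 to 51.7 ± 2.50 FPM (SD, n = 3), a difference of -1.22 (SE 0.07, limma, adjusted p = 7.21e-19), and its partner TNIP1 from 169 ± 4.19 to 108 ± 4.57 FPM. NFKBIA and NFKBIE, the inhibitors I-kappaB alpha and epsilon that hold NF-kappaB in the cytoplasm, fell too, NFKBIA from 221 ± 15.3 to 152 ± 8.15 FPM and NFKBIE from 23.8 ± 4.16 to 14.6 ± 1.00 FPM (SD, n = 3).

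Chemokine mRNAs can carry AU-rich elements, which mark them for decay. The 15 proteins listed under this decay, all tested, have mixed roles, among them a stabilising protein, an endonuclease and a deadenylase. Of them 3 fell and 8 rose, with a median of 0.19 against 0.13 for all tested genes, and after rescaling 3 fell and 3 rose. The shares over all tested genes were 4.49% and 22.5% on FPM, and 9.2% and 10.0% after rescaling. ZFP36L2, a zinc-finger protein that recruits the deadenylase, fell from 134 ± 3.01 to 85.4 ± 5.93 FPM (SD, n = 3), a difference of -0.65 (SE 0.07, limma, adjusted p = 3.4e-10). ZFP36, its relative tristetraprolin, fell from 54.7 ± 6.13 to 44.4 ± 1.19 FPM, and ZC3H12A, the endonuclease regnase-1, from 26.8 ± 3.58 to 19.1 ± 0.701 FPM, both named after their values were seen. KHSRP (132 ± 7.39 to 177 ± 13.0 FPM), the stabilising protein ELAVL1 (82.3 ± 4.01 to 103 ± 7.04 FPM) and the deadenylase CNOT7 (77.9 ± 4.86 to 97.3 ± 2.66 FPM) rose on both scales (SD, n = 3).

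**Figure D4:**
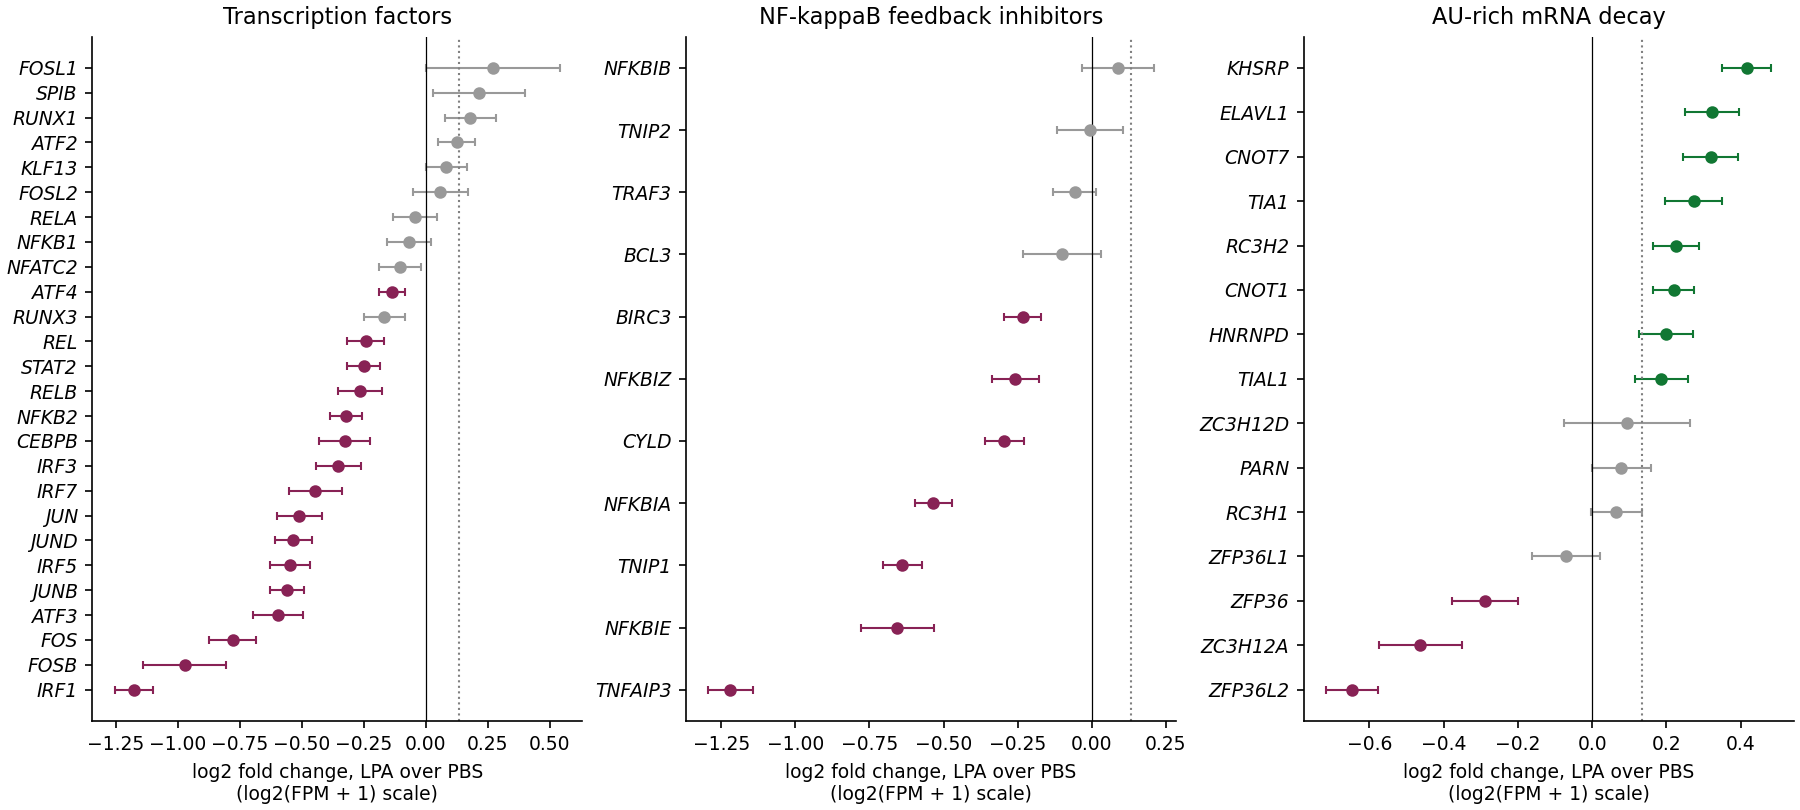
Difference of LPA minus PBS on the log2(FPM + 1) scale (horizontal axis) with its SE for tested transcription factors (26 drawn), NF-kappaB feedback inhibitors and AU-rich mRNA decay proteins, 3 libraries a group. Purple points are called lower, green called higher and grey not called, and the dotted line is the median tested gene at 0.13; 16 of the drawn factors and 7 inhibitors are purple and none of either is green.

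Chemokines are stored and displayed on proteoglycans. Of 17 carriers and processing enzymes, 13 were listed and tested, 2 fell and 5 rose on FPM, and 4 fell and 3 rose after rescaling. Their median was 0.09, against 0.13 for all tested genes, of which 4.49% fell and 22.5% rose on FPM. After rescaling those shares were 9.2% and 10.0%. SDC1, the heparan sulfate proteoglycan CD138 of plasma cells, rose from 60.7 ± 1.20 to 118 ± 11.9 FPM (SD, n = 3), a difference of 0.95 (SE 0.08, limma, adjusted p = 1.94e-14). CD44 rose from 443 ± 45.1 to 547 ± 28.9 FPM and the heparan sulfate sulfotransferase HS2ST1 from 50.7 ± 1.83 to 66.8 ± 1.36 FPM, and SDC4 fell from 13.6 ± 1.23 to 9.31 ± 1.28 FPM (SD, n = 3). The other gene that fell, NDST2, named after its value was seen, went from 28.6 ± 3.82 to 23.0 ± 2.51 FPM, with groups that overlapped. The 5 rises became 3 without PBS 1, without PBS 3 or without LPA 3, and the 2 falls became 1 without PBS 2, PBS 3 or LPA 1 and 0 without LPA 2. SDC1, CD44 and HS2ST1 also rose after rescaling.

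Of 32 other factors linked to myeloma bone disease, 25 were listed and 17 tested. On FPM 4 fell and 1 rose, and 7 fell and 1 rose after rescaling. Their median was -0.13, against 0.13 for all tested genes. The shares over all tested genes were 4.49% lower and 22.5% higher on FPM, and 9.2% and 10.0% after rescaling. LTA (lymphotoxin alpha) fell from 5.47 ± 0.261 to 2.14 ± 0.506 FPM (SD, n = 3), a difference of -1.05 (SE 0.21, limma, adjusted p = 9.26e-05). The cytokines IL7 (7.39 ± 1.63 to 3.82 ± 0.441 FPM) and IL1B (4.03 ± 0.724 to 1.98 ± 0.222 FPM) fell as well (SD, n = 3). LTA and IL1B rested on only 11 to 31 reads a library, and with a filter of 5 FPM 2 factors were called lower. IL6, named after its value was seen, fell from 6.78 ± 1.63 to 4.03 ± 0.757 FPM. BMP6, a bone morphogenetic protein, rose from 25.2 ± 3.10 to 41.3 ± 2.78 FPM (SD, n = 3), a difference of 0.70 (SE 0.10, limma, adjusted p = 3.45e-07). DKK1, TNFSF11 (RANKL), SOST, HGF, LTB, PTHLH and MMP13 were not listed and were not analysed here.

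Most of the tested genes beside the 3 did not fall with them, which held for tested genes in general. Of all tested genes 4.49% fell and 22.5% rose on FPM. The copies CCL3L3 and CCL4L2, described above, lie beside CCL3 and CCL4 too and are not counted here. Of 22 other genes next to CCL5 or next to the pair of CCL3 and CCL4 in GENCODE 29, 10 were listed and 9 tested, 1 fell and 2 rose, and neither rise held after rescaling. The gene that fell was HEATR9, the next gene to CCL5 at a gap of 2600 bases, from 2.50, 3.43 and 4.36 FPM with PBS to 0.458, 1.08 and 0.575 FPM with LPA, a difference of -1.38 (SE 0.24, limma, adjusted p = 1.78e-05, n = 3 a group). It was also called lower in edgeR, whereas DESeq2 gave it no adjusted p. TAF15, on the same side of CCL5 as HEATR9 at a gap of 6876 bases, was at 93.8 ± 4.52 and 99.96 ± 8.35 FPM (SD, n = 3). RDM1 on the other flank of CCL5 was at 5.59 ± 1.58 and 5.90 ± 0.488 FPM, and TBC1D3B beside CCL3 and CCL4 at 5.59 ± 0.661 and 5.32 ± 0.769 FPM (SD, n = 3). TAF15, RDM1 and TBC1D3B did not pass the test. CCL16, another chemokine of the cluster, did not pass. AP2B1 (153 ± 1.99 to 173 ± 1.92 FPM, SD, n = 3) was among the 2 that rose, and leaving out PBS 1, PBS 3 or LPA 2 removed both calls, leaving out LPA 1 or LPA 3 removed 1. The transcripts annotated antisense to CCL3 and to CCL5 were not listed. The sources used here do not say whether the counting used strand.

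The genes closest in profile were found by the Euclidean distance between log2(FPM + 1) values of the 6 libraries, each centred on its PBS mean, among 12262 genes of at least 5 FPM. With 2 groups this measure mostly compares the size of the difference. CCL3 had 404 genes within a distance of 0.5, CCL4 18 and CCL5 2. Nearest to CCL3 were the AP-1 subunit JUNB (distance 0.067), HLA-E (0.071), the interferon-induced GTPase MX1 (0.072), WHRN (0.079) and CREBRF (0.084). MX1, for instance, went from 229 ± 9.52 to 155 ± 7.26 FPM (SD, n = 3). Nearest to CCL4 were TNFAIP3 (0.275), the ubiquitin ligase PELI1 (0.279), the antiviral zinc-finger protein ZC3HAV1 (0.299), HAPLN3 (0.308) and the RNA sensor IFIH1 (0.327). IFIH1 went from 150.5 ± 9.85 to 55.8 ± 2.44 FPM (SD, n = 3). Nearest to CCL5 were the guanylate-binding protein GBP5 (0.220), the helicase DDX60 (0.498), IFIT1 (0.520), IFI44 (0.776) and XIRP1 (0.951). GBP5 went from 104, 126 and 116 FPM in PBS 1 to 3 to 17.2, 18.9 and 16.1 FPM in LPA 1 to 3. GBP5, DDX60, IFIT1, IFI44, IFIH1 and MX1 are among those of these 15 genes that are known as interferon-induced. The share of such genes among all genes with differences of this size was not taken. HLA-E and IFIT1 belong to families of like sequence, so their counts may hold reads of relatives.

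**Figure D5:**
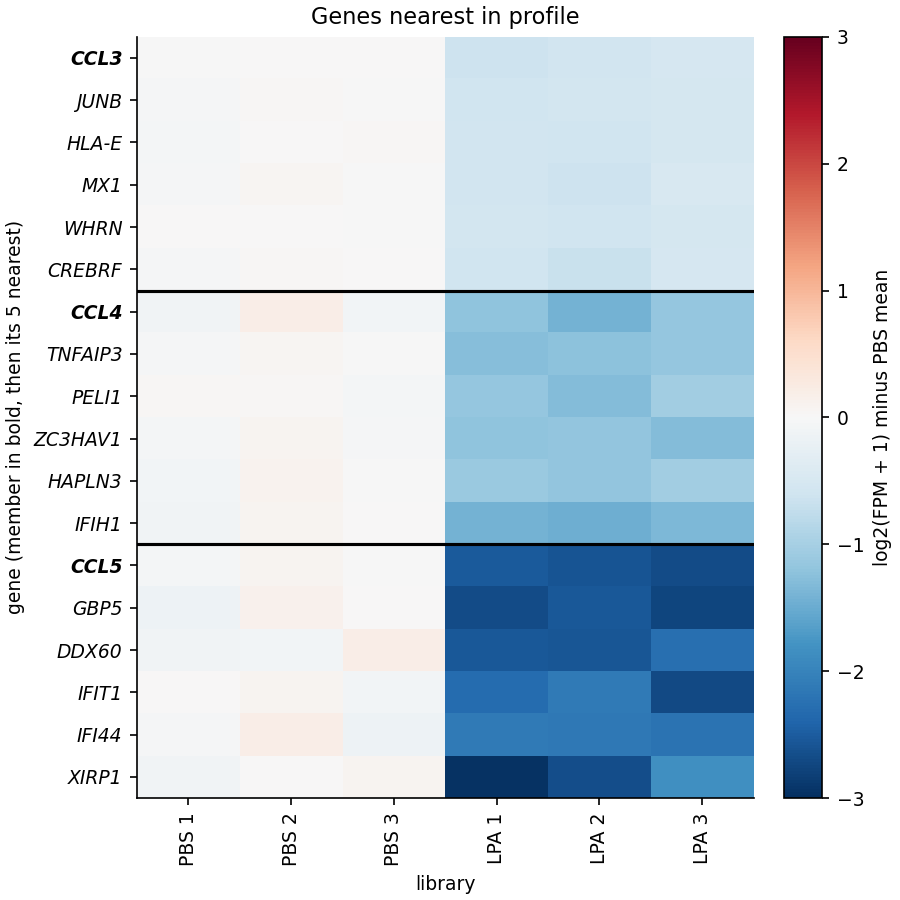
Log2(FPM + 1) minus the PBS mean (colour) in the 6 libraries (columns) for CCL3, CCL4 and CCL5 (bold) and the 5 genes nearest to each in profile (rows). Blue is below the PBS mean; the blocks darken from CCL3 to CCL5, and the genes beside CCL5 lie further from it than those beside CCL3 do.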

How the data were processed

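RNA of ARP1 cells was sequenced in 24 lanes, 4 for each of 6 libraries, per the labels. The authors deposited FPM (CPM for fragments), scaled to the total of the lane. In every lane 100% of the values were whole multiples of 1 read (tolerance 0.02 reads), and the recovered counts were used only in alternatives. The submitters' processing notes name the build mm10, whereas the identifiers are human Ensembl genes. The sources used here name no aligner or counting rule. Of 19346 rows, 1 blank and 187 repeats were dropped. The genes listed hold between 86.5% and 91.6% of the recovered total of a library. No column was left unmapped.

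Genes of at least 1 FPM in 3 libraries (16274) were fitted on log2(FPM + 1) with limma 3.58.1 (trend, robust), two-sided, without covariates, with Benjamini-Hochberg adjustment over all of them at 0.05. Alternatives changed the pseudocount, filter, scaling (median of ratios, TMM), tool (edgeR 4.0.16, DESeq2 1.42.0), libraries and replicate block. Named genes were the members, copies, ligands and receptors of at least 1 FPM, up to 4 called genes a list, near neighbours and the 5 nearest profiles; others are said to be named after their values were seen. Some genes counted in the lists are not reported here. The members and lists were chosen with earlier results of these data known. Lengths, coding sequences and neighbours come from GENCODE 29.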

Additional observations from a re-analysis of the deposited data

How the results depend on the processing

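CCL3, CCL4 and CCL5 were lower with LPA under each alternative run. Leaving out 1 library at a time, the log2 difference lay between -0.60 and -0.54 for CCL3, between -1.31 and -1.17 for CCL4 and between -2.63 and -2.55 for CCL5. CCL5 was at -2.75 with a pseudocount of 0.25 and at -2.14 with 4, since its LPA level is low, at -2.72 after median-of-ratios and TMM rescaling, at -2.52 without PBS 2 and LPA 3, at -2.94 in edgeR and at -2.95 in DESeq2. CCL3 was at -0.71 after median-of-ratios rescaling, -0.70 after TMM, -0.71 in edgeR and DESeq2 and -0.48 with its copy added. CCL4 was at -1.42 in edgeR and -1.43 in DESeq2. Over all genes, 3666 were higher and 731 lower on deposited FPM, against 1633 and 1497 after median-of-ratios rescaling, 1682 and 1461 after TMM, 1679 and 1569 in edgeR, and 802 and 943 in DESeq2; without 1 library between 2459 and 4493 were higher and between 540 and 711 lower.

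The 3 rescaled or count-based fits (median of ratios, TMM, edgeR) called 2 copies, 2 receptors, 4 carriers and 7 bone disease factors lower and 3 decay proteins, 3 carriers and 0 neighbours higher. DESeq2 called 2 copies, 1 receptor and 7 bone disease factors lower, 0 neighbours in either direction (HEATR9 got no adjusted p), and 1 decay protein and 2 carriers higher. A filter of 5 FPM left 2 bone disease factors and 0 neighbours lower, since fewer genes were tested, and no filter left 1 neighbour higher. Without PBS 2 and LPA 3, 1 transcription factor (RUNX1) and 1 neighbour (AP2B1) were higher. Without 1 library, receptors ranged from 1 to 2 in each direction, factors higher from 0 to 1, carriers higher from 3 to 6 and lower from 0 to 2, and neighbours higher from 0 to 3. For the other shifts the cause was not tested. Of the named genes, 14 gene and setting pairs lost the call and 9 gained it, with 943 keeping their side, 42 of these with another sign but no call; AP2B1 lost it most often, IL1B without PBS 2 and LPA 3, SDC4 without LPA 2, and CNOT7, ELAVL1 and HS2ST1 in DESeq2.

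No pairing by library number was seen: deviations of same-numbered libraries correlated at -0.01, -0.04 and -0.05. Those of differently numbered libraries correlated between -0.01 and 0.05. With 3 libraries a group whose spread may be technical, this check cannot exclude a paired design. With the number as a replicate block, 3339 genes were higher and 720 lower, and 0 neighbours were higher. CCL5 with LPA rests on at most 49 reads a library, and CXCR3, TNF and other genes near 3 reads could not be compared at this depth.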
